A study of Mus musculus with 8 samples.

Results

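Clonotypes of 2 to 9 reads, called intermediate here, stand between the many T-cell receptor sequences that were read once and the few that were read 10 times or more. They were chosen by their read count in each deposited library, with the alpha and beta chains kept apart. They made up 12839 of 53249 alpha clonotype records (24.1%) and 9747 of 60131 beta records (16.2%), or 22586 of 113380 in all. The records of 1 read, used below for comparison and called singletons, numbered 40109 for alpha and 50122 for beta, and those of 10 or more reads numbered 301 and 262.

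The cells were endogenous CD8+ T cells (en-T cells) from inguinal lymph nodes and spleen of tumor-bearing mice, sorted as CD8-positive and Thy1.1-negative. All mice were C57BL/6 females aged 6 to 8 weeks that carried B16F10 melanoma. They received cyclophosphamide at 300 mg/kg on day 3, Pmel-1 cells (Thy1.1 T cells with a transgenic receptor for a gp100 peptide) on day 5 and IL-2 at 10000 IU a day for 3 days. The CTX group (3 mice) received nothing further, and the CTX_CD4 group (5 mice) also received 200 µg of the anti-CD4 antibody GK1.5 weekly for 3 weeks from day 10. Cells were taken on day 25. The labels number these samples as replications and do not say in words that each is a separate mouse, as is taken here, so p-values measure the spread between samples. Each of the 16 libraries held 10000 reads of 1 chain, the depth to which the study had reduced them. The reads carry no molecular identifiers, so that the read counts are not counts of cells, and intervals cover counting error only. A sequence with no read in a library may still have made up to 0.03% of its reads (the limit of 3 reads).

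A T-cell receptor chain is assembled in the thymus by joining a V segment to a J segment, with a D segment between them in the beta chain. The junction lies in the third complementarity-determining region (CDR3), which contacts the antigen peptide. Exonucleases trim the segment ends and terminal deoxynucleotidyl transferase adds nucleotides that no segment encodes. Junctions with few added nucleotides can arise repeatedly, and such sequences found in several individuals are called public. The CDR3s below show both kinds among the intermediates, with nucleotides assigned to no V, D or J segment in capitals and all others in lower case. For each chain, the first 3 are those that were intermediate under the same V and J names in the most mice, and the next 2 are private sequences, 1 per group, with 9 reads and the most inserted nucleotides.
alpha public 1: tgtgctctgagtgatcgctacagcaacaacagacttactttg
alpha public 2: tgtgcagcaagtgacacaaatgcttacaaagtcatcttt
alpha public 3: tgtgctctgagcaactatcagttgatctgg
alpha private CTX: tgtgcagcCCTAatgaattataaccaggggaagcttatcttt
alpha private CTX_CD4: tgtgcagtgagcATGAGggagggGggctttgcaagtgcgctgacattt
beta public 1: tatgctgagcagttcttc
beta public 2: tgtgccagcggtgaacagtacttc
beta public 3: tgtgccagcagtgatgctgaacagtacttc
beta private CTX: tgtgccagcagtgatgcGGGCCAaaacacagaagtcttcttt
beta private CTX_CD4: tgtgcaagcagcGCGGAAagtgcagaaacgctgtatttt

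None of the 6 public sequences had a nucleotide in capitals. Alpha public 1 joined TRAV12N-3 (GRCm38 chr14:53240745-53241244) to TRAJ7 (chr14:54211470-54211528), and had 3, 8 and 7 reads in CTX mice 1 to 3 and 2, 4, 3, 6 and 2 reads in CTX_CD4 mice 1 to 5. Alpha public 2 joined TRAV14N-1 to TRAJ30 and was intermediate in 8 mice too, in 7 of them under these names, with 39 reads in all. Whatever the V and J named, 3 alpha sequences were intermediate in all 8 mice, 2 of them under several names, and 1 of these is not shown. Alpha public 3, TRAV12N-3 with TRAJ33, was intermediate in 7 mice and had 13 reads in CTX mouse 3. The V names are those given in the files. The TRAV locus holds near-identical copies of many segments, and the amino acid sequence of alpha public 2 was listed under 14 V names, so that the copy named for a clonotype is uncertain.

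Beta public 1, TRBV21 with TRBJ2-1, was intermediate in 7 mice and had 11 reads in CTX_CD4 mouse 1. It was 18 nucleotides long and did not begin with the codon for the conserved cysteine. Clonotypes with TRBJ2-1 matched the germline end of that segment over 18.7 nucleotides on average. The length of beta public 1 thus leaves no clear room for a V part, and it is not read as a public V-J junction. No other beta sequence was intermediate in more than 3 mice. Beta public 2 and beta public 3 (TRBV13-2 and TRBV13-1, both with TRBJ2-7) were each listed in 4 mice, with 9 and 7 reads in all. The private sequences held 4 to 6 inserted nucleotides, and the alpha private CTX_CD4 sequence, TRAV7D-3 with TRAJ35, was listed with a TRDD2 segment between.

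Before the values, 1 feature of the libraries has to be given. CTX_CD4 mice 1 and 2 shared more sequences with each other than other pairs of mice did, clearly so in the beta chain only. Between them, 16 beta sequences were intermediate in both, against 1 to 9 (median 3) for the other 27 pairs, and 4.51% of the intermediates of mouse 1 were listed in mouse 2 and 5.34% the other way, against 0.546% to 1.78% in other pairs. In the alpha chain 134 were intermediate in both, against 75 to 127. The source of the shared sequences was not tested, and the main values that rest on sharing between mice are also given without them. The files hold receptor sequences alone, so that CD8 and other defining markers of the sorted cells could not be checked.

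The number of intermediates differed more between mice than between groups. In the alpha chain the CTX mice had 1763, 1518 and 1877, and the CTX_CD4 mice had 1863, 1208, 1561, 1702 and 1347. Beta intermediates numbered 1230, 1039 and 1419 in the CTX mice and 1465, 862, 1179, 1367 and 1186 in the CTX_CD4 mice. The groups overlapped in both chains, CTX_CD4 mouse 2 was lowest in both, and every mouse had fewer beta than alpha intermediates.

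Intermediates held a larger share of reads than of records. They held 41.9% ± 4.65 (SD, n = 3) of alpha reads in CTX and 41.0% ± 6.93 (SD, n = 5) in CTX_CD4. Their share of beta reads was 28.3% ± 4.65 and 31.0% ± 5.76. The lowest alpha share was 31.7% in CTX_CD4 mouse 2 (95% Wilson interval 30.7% to 32.6%) and the highest was 49.8% in CTX_CD4 mouse 1 (48.8% to 50.7%). Because the class was chosen by read count, these shares are a description and no test was run.

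**Figure D1:**
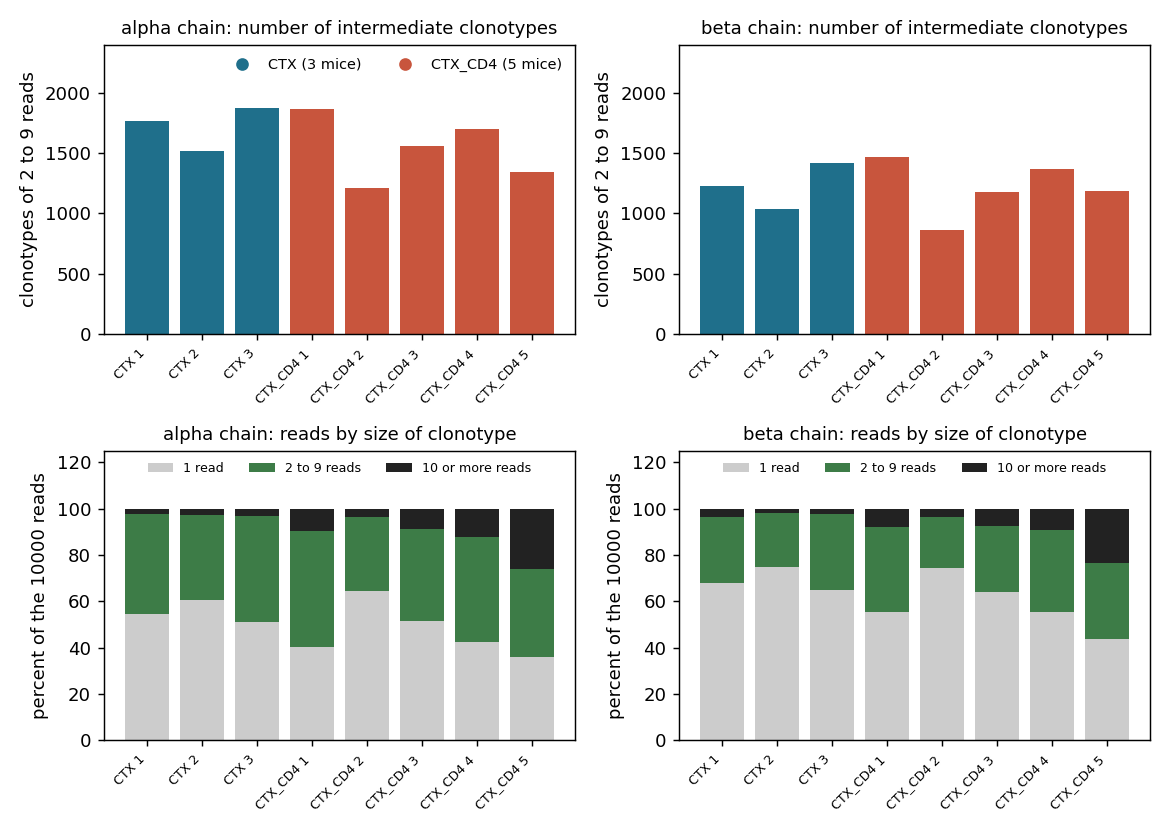
Upper panels, number of clonotypes of 2 to 9 reads in each mouse, colored by group. Lower panels, percent of the 10000 reads of each library in clonotypes of 1 read, 2 to 9 reads and 10 or more reads. The groups overlap in the number of intermediates, and CTX_CD4 mouse 2 has the fewest in both chains.

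Within the class, most intermediates had 2 reads, and the CTX_CD4 mice had relatively more with many reads. In the alpha chain 72.7% ± 2.11 (SD, n = 3) of CTX intermediates and 66.6% ± 2.81 (SD, n = 5) of CTX_CD4 intermediates had 2 reads. Of beta intermediates, 80.7% ± 1.69 and 72.6% ± 3.75 had 2 reads. For both chains the lowest CTX mouse lay above the highest CTX_CD4 mouse.

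At the other end, 3.63%, 4.28% and 3.46% of alpha intermediates had 5 to 9 reads in the CTX mice, against 7.89%, 7.78%, 5.96%, 8.28% and 11.6% in the CTX_CD4 mice. The beta values were 2.44%, 2.12% and 2.47% against 5.05%, 7.31%, 4.83%, 7.17% and 10.5%. Again the groups did not overlap, and CTX_CD4 mouse 5 was highest in both chains. The mean read count of an alpha intermediate was 2.44 ± 0.0150 in CTX and 2.67 ± 0.101 in CTX_CD4. These counts also made the class, and none was tested.

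At the lower bound, 5014 ± 995 (SD, n = 8) alpha clonotypes per mouse had 1 read and 1107 ± 182 had 2. For beta, 6265 ± 1050 had 1 read and 921.4 ± 159 had 2. At the upper bound, 8.38 ± 4.96 alpha clonotypes had 9 reads and 4.38 ± 3.34 had 10, and in the beta chain 6.13 ± 4.97 had 9 and 3.75 ± 3.58 had 10. The number of clonotypes fell steeply at the lower bound. At the upper bound the numbers were small, and whether they showed a step was not tested.

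**Figure D2:**
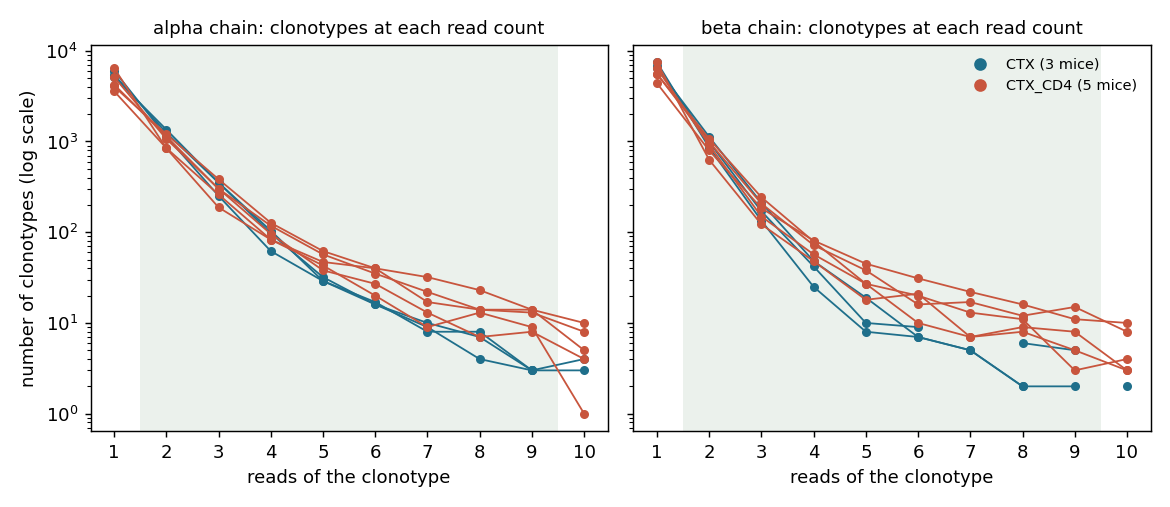
Number of clonotypes (log scale) at each read count from 1 to 10, 1 line per mouse, with 2 to 9 reads shaded and counts of 0 not drawn. From 5 reads upward the CTX_CD4 lines lie mostly above the CTX lines.

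Alpha intermediates were built with fewer inserted nucleotides than singletons and were more often found in another mouse. The mean number of inserted nucleotides was 1.86, 1.81 and 1.86 in the CTX mice and 1.91, 1.70, 1.79, 1.90 and 1.89 in the CTX_CD4 mice, whereas singletons had 2.16 to 2.23. It was lower in the intermediates of all 8 mice, by 0.349 nucleotides on average (SD 0.0916, exact sign-flip test, two-sided, p = 0.0078, adjusted over the 11 alpha features p = 0.0107). With 8 mice no smaller p can be reached. The means of the 8 mice did not overlap between the classes. Junctions with no inserted nucleotide made up 36.6% ± 1.98 (SD, n = 8) of intermediates and 29.7% ± 0.762 of singletons, with the same direction in 8 of 8 mice.

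The inserted nucleotides were read from the segment positions in the files, and a count that did not use them gave the same direction. Matched to the germline ends of the named V and J segments in GRCm38, alpha intermediates had 2.74 ± 0.0865 (SD, n = 8) unmatched nucleotides and singletons had 3.36 ± 0.0286. The difference of −0.621 held in 8 of 8 mice (exact sign-flip test, p = 0.0078).

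Sequences were traced between mice by their nucleotide sequence. Of alpha intermediates, 36.9%, 39.0% and 36.6% were found in at least 1 other mouse in the CTX group, and 37.0%, 44.9%, 37.1%, 34.9% and 36.5% in the CTX_CD4 group. Of singletons, 22.5% to 26.1% were. The mean difference was 13.6 percentage points (SD 3.96), in the same direction in 8 of 8 mice (exact sign-flip test, p = 0.0078, adjusted p = 0.0107). CTX_CD4 mouse 2 stood apart from the other mice with the highest share. With CTX_CD4 mice 1 and 2 left out entirely, 32.3% ± 1.15 (SD, n = 6) of intermediates and 20.3% ± 1.34 of singletons were shared, in the same direction in 6 of 6 mice (exact sign-flip test, p = 0.0313, the smallest possible).

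**Figure D3:**
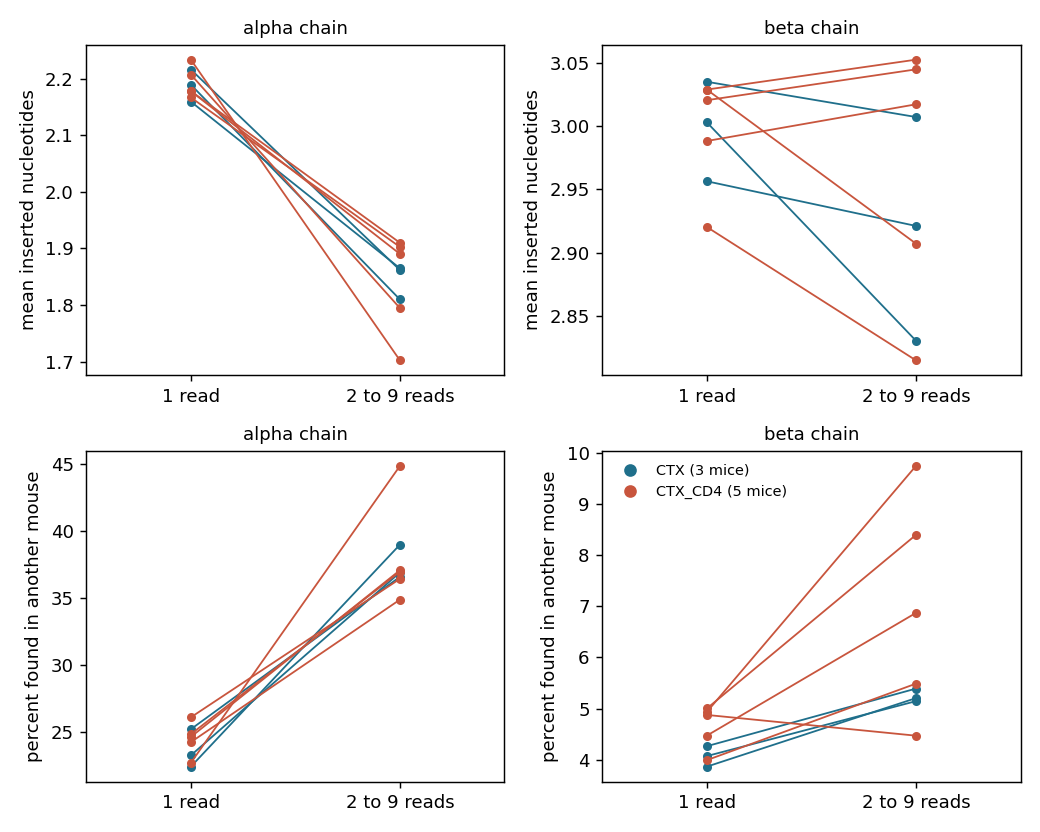
Mean number of inserted nucleotides (upper panels) and percent of clonotypes found in another mouse (lower panels) for clonotypes of 1 read and of 2 to 9 reads, 1 line per mouse; axes do not start at 0. All 8 alpha lines fall for inserted nucleotides and rise for sharing, whereas the beta lines are mixed for inserted nucleotides and 7 of 8 rise for sharing.

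Sharing was also compared between junctions with the same number of inserted nucleotides. Among alpha junctions with none, 59.0% ± 3.93 (SD, n = 8) of intermediates and 40.3% ± 1.70 of singletons were found in another mouse. With 1 to 2 inserted nucleotides the shares were 38.6% ± 3.13 and 27.5% ± 2.25, and with 3 to 4 they were 17.3% ± 1.61 and 12.4% ± 0.678. Each of these 3 differences held in 8 of 8 mice (exact sign-flip tests, adjusted over 8 comparisons p = 0.0156). With 5 or more, the shares were 3.93% ± 1.28 and 2.88% ± 0.646 and the difference did not pass (exact sign-flip test, adjusted p = 0.0804). With CTX_CD4 mice 1 and 2 left out, the shares were 52.6% and 34.9% with no inserted nucleotide, 31.5% and 22.6% with 1 to 2, 13.7% and 9.76% with 3 to 4, each higher in intermediates in 6 of 6 mice (exact sign-flip tests, p = 0.0313, the smallest possible, adjusted over 10 comparisons p = 0.0521). With 5 or more they were 2.90% and 2.03%, higher in 5 of 6 (exact sign-flip test, adjusted p = 0.223). In the beta chain over all 8 mice, the shares were 16.2% and 11.2% with no inserted nucleotide. Intermediates were higher in 8 of 8 mice (exact sign-flip test, adjusted over 8 comparisons p = 0.0156). The beta differences with 1 to 2, 3 to 4 and 5 or more did not pass (exact sign-flip tests, adjusted p of 0.0804 to 0.820). With CTX_CD4 mice 1 and 2 left out, beta junctions went both ways. Their shares were 13.2% and 9.03% with no inserted nucleotide, higher in 6 of 6. With 1 to 2 they were 3.86% and 3.52% (4 of 6), and with 3 to 4 they were 2.82% and 2.15% (5 of 6). With 5 or more they were 0.127% and 0.417%, higher in 0 of 6. No beta comparison of these 6 mice passed (exact sign-flip tests, adjusted p of 0.0521 to 0.594). With 6 mice the smallest possible p leaves little room for adjustment in either chain, so that no conclusion is drawn from this.

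Most intermediate sequences were nevertheless private. Of 11106 distinct alpha sequences that were intermediate in any mouse, 8014 (72.2%) were listed in 1 mouse only and 30 in all 8. The mean number of inserted nucleotides was 2.45 in the first set and 0.404 in the second. Of 9654 distinct beta sequences, 9138 (94.7%) were listed in 1 mouse only and 2 in all 8. In all, 1064 alpha and 85 beta sequences were intermediate in at least 2 mice. In the 6 mice other than CTX_CD4 mice 1 and 2, 76.0% of 8708 alpha and 96.3% of 7378 beta sequences were listed in 1 mouse only, 744 and 36 were intermediate in at least 2, and 51 and 2 were listed in all 6.

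Of the other alpha features, 5 also differed in all 8 mice. The CDR3 of intermediates was shorter, at 40.8 ± 0.141 (SD, n = 8) nucleotides against 41.1 ± 0.0673, in 8 of 8 mice (exact sign-flip test, adjusted p = 0.0107). Another nucleotide form of the same amino acid sequence was present in the same library for 24.9% ± 3.26 of intermediates and 17.6% ± 1.46 of singletons. The middle residues (the CDR3 without its ends) were slightly more hydrophilic, with a mean Kyte-Doolittle hydropathy of −1.57 ± 0.0232 against −1.53 ± 0.00998. The chance that 2 clonotypes drawn from the class have V and J in common was 0.120% ± 0.0125 against 0.0734% ± 0.00396. All of these had the same direction in 8 of 8 mice (exact sign-flip tests, adjusted p = 0.0107), as did the mean TRAJ number given below. An internal cysteine and ends other than cysteine and phenylalanine or tryptophan did not pass (exact sign-flip tests, adjusted p = 0.103 and 0.523).

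A near neighbour, meaning a sequence of more reads that differs at 1 nucleotide, is a form that a sequencing error can take. Such neighbours were present for 3.02% ± 0.589 (SD, n = 8) of alpha intermediates and 4.04% ± 0.521 of singletons, and for 0.285% ± 0.140 and 0.587% ± 0.206 in the beta chain. Because the neighbour must have more reads than the clonotype itself, singletons have more possible neighbours by construction. The shares were tested with the other features, but for this reason no conclusion is drawn from their difference. The adjusted alpha p-values above count this share among the features. Without it, the adjusted p of alpha inserted nucleotides is 0.00977 in place of 0.0107 (exact sign-flip test). Leaving out clonotypes with a near neighbour left the alpha differences above in place.

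Beta intermediates differed from singletons less. Adjusted p-values of the class comparison are given here over the 11 features other than the near-neighbour share, and 0 of the 11 passed. That share was left out because it depends on the read counts that define the classes. With that share counted among 12 features, the p of 0.0573 below is 0.0469 (exact sign-flip tests). Inserted nucleotides averaged 2.95 ± 0.0943 (SD, n = 8) against 3.00 ± 0.0408, lower in 5 of 8 mice (exact sign-flip test, p = 0.141, adjusted p = 0.172). The whole stretch from the V end to the J start, which holds the D segment, was shorter in 8 of 8 mice, at 8.79 ± 0.160 against 9.01 ± 0.0553 nucleotides (exact sign-flip test, p = 0.0078). This measure was added after the data had been seen. The CDR3 was 41.4 ± 0.233 nucleotides long against 41.7 ± 0.0837, shorter in 6 of 8 mice, and did not pass (exact sign-flip test, p = 0.0313, adjusted p = 0.0688). A D segment was assigned to 71.5% ± 0.868 of intermediates and 72.9% ± 0.480 of singletons, lower in 7 of 8 mice (exact sign-flip test, adjusted p = 0.0573).

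Sharing of beta intermediates rested partly on 1 pair of mice. It was 5.20%, 5.39% and 5.14% in the CTX mice and 8.40%, 9.74%, 6.87%, 5.49% and 4.47% in the CTX_CD4 mice, against 3.86% to 5.00% of singletons. It was higher in 7 of 8 mice, by 1.90 percentage points (exact sign-flip test, p = 0.0156, adjusted p = 0.0573). The 2 highest values were those of CTX_CD4 mice 1 and 2. Without these mice the shares were 4.29% ± 0.979 (SD, n = 6) and 3.27% ± 0.264, and the difference did not pass (exact sign-flip test, p = 0.0625). V and J pairs were in common for 0.905% ± 0.104 of pairs of beta intermediates and 0.762% ± 0.0294 of pairs of singletons, higher in 8 of 8 mice (exact sign-flip test, adjusted p = 0.0573).

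Alpha inserted nucleotides and sharing also changed along the class itself, whereas the change in CDR3 length did not pass. Alpha clonotypes of 2 reads had 1.94 ± 0.0829 (SD, n = 8) inserted nucleotides, those of 3 reads 1.70 ± 0.153, those of 4 reads 1.63 ± 0.296 and those of 5 to 9 reads 1.30 ± 0.359. Between 2 and 5 to 9 reads the mean fell in 8 of 8 mice (exact sign-flip test, adjusted over 16 comparisons p = 0.0208). The share found in another mouse was 33.8% ± 2.54 at 2 reads and 59.7% ± 14.0 at 5 to 9 reads, higher in 8 of 8 mice (exact sign-flip test, adjusted p = 0.0208). Without CTX_CD4 mice 1 and 2 it was 28.3% and 56.3%, higher in 6 of 6 mice (exact sign-flip test, p = 0.0313, the smallest possible, adjusted p = 0.0521). The CDR3 differed by −0.345 nucleotides on average at 5 to 9 reads and was shorter in 6 of 8 mice (exact sign-flip test, adjusted p = 0.232). Beta inserted nucleotides did not pass between these read counts (exact sign-flip test, adjusted p = 0.792).

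Within the class, the groups were farthest apart in 3 alpha measures among the 825 alpha intermediates of 5 to 9 reads. Their inserted nucleotides averaged 0.734, 0.892 and 1.03 in the CTX mice and 1.61, 1.61, 1.59, 1.43 and 1.52 in the CTX_CD4 mice. Found in another mouse were 79.7%, 78.5% and 63.1% in CTX and 56.5%, 59.6%, 52.7%, 48.2% and 39.1% in CTX_CD4, or 71.9%, 75.4% and 60.0% against 49.5%, 45.4% and 35.9% in CTX_CD4 mice 3 to 5 with CTX_CD4 mice 1 and 2 left out. Without any inserted nucleotide were 67.2%, 58.5% and 60.0% in CTX and 40.8%, 53.2%, 45.2%, 46.8% and 46.8% in CTX_CD4. The groups did not overlap in any of the 3 measures. Each reached the smallest p of an exact Mann-Whitney test of 3 against 5 mice (two-sided p = 0.0357), as did 5 of 32 such comparisons over read counts, these 3 included, and none passed adjustment (p = 0.229). The read-count groups were set after earlier results of these data were known, and the CTX libraries had only 64 to 65 such clonotypes each.

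**Figure D4:**
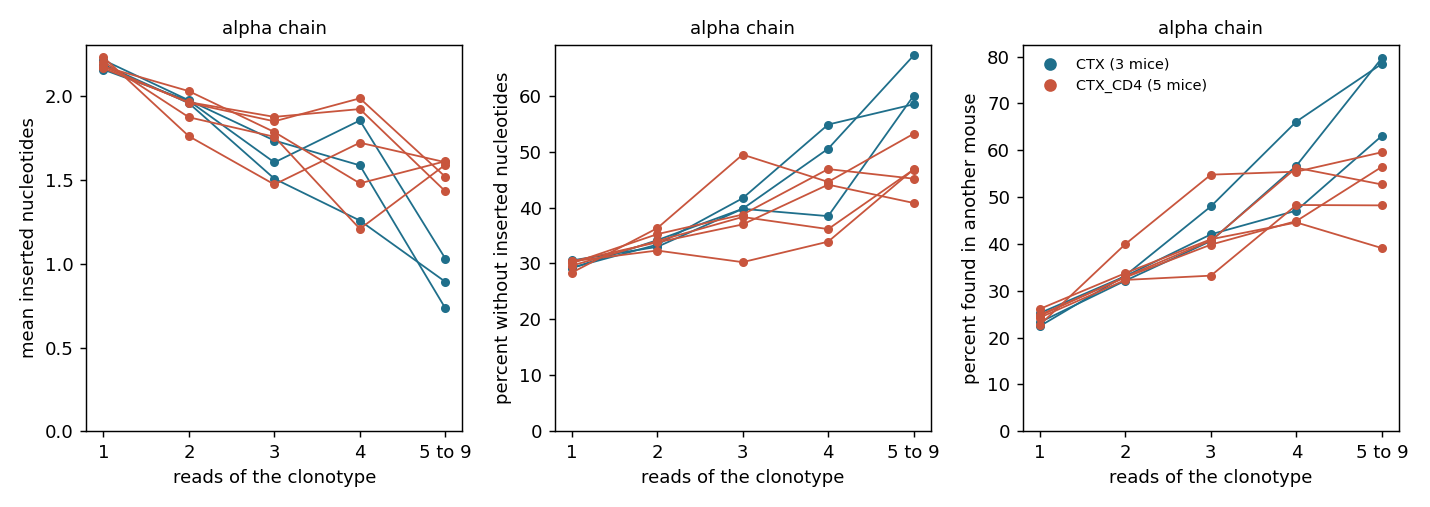
Alpha clonotypes by read count, 1 line per mouse: mean inserted nucleotides (left), percent without inserted nucleotides (middle) and percent found in another mouse (right). At 5 to 9 reads the CTX mice lie at 0.734 to 1.03 inserted nucleotides, below all CTX_CD4 mice at 1.43 to 1.61.

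Over the whole class no CDR3 feature differed between the groups after adjustment (exact Mann-Whitney tests), whereas 3 beta segments did, as given below. Alpha inserted nucleotides were 1.85 ± 0.0309 (SD, n = 3) in CTX and 1.84 ± 0.0900 (SD, n = 5) in CTX_CD4 (exact Mann-Whitney test, two-sided, p = 0.786). Alpha CDR3 length was 40.8 ± 0.0730 and 40.7 ± 0.163 nucleotides (exact Mann-Whitney test, p = 0.25), and beta inserted nucleotides were 2.92 ± 0.0882 and 2.97 ± 0.103 (p = 0.571, exact). Beta CDR3 length was 41.4 ± 0.187 and 41.5 ± 0.272 nucleotides (exact Mann-Whitney test, p = 1). The share of alpha intermediates found in another mouse was 37.5% ± 1.30 and 38.1% ± 3.91 (exact Mann-Whitney test, p = 1). This difference of 0.550 points became −1.15 without CTX_CD4 mouse 2 and −4.56 at 3 to 9 reads, and passed in neither (exact Mann-Whitney tests).

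For 2 beta features the mice did not overlap between the groups but did not pass adjustment over the 12 features. Mean hydropathy of the middle residues was −1.30 ± 0.00697 (SD, n = 3) in CTX and −1.27 ± 0.0173 (SD, n = 5) in CTX_CD4. The chance of V and J in common was 1.01% ± 0.0529 in CTX and 0.840% ± 0.0572 in CTX_CD4 (both exact Mann-Whitney p = 0.0357, adjusted p = 0.171).

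V segments differed between the classes in both chains. The number of clonotypes per segment was compared with edgeR's quasi-likelihood test, with the mouse as a block. In the alpha chain 43 of 95 V segments tested passed at an adjusted p of 0.05 (45.3%), 18 higher and 25 lower in intermediates. Of 22 beta V segments 11 passed (50%), 5 higher and 6 lower. Folds are scaled by TMM, which weights against segments that change most. With library totals in its place the median alpha V fold moved by −0.20 on the log2 scale, and 11 were higher and 33 lower of 44 called.

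The TRAV7 family includes the alpha V of the Pmel-1 receptor. TRAV7D-2 (chr14:52683964-52684472) was used by 5.28%, 4.15% and 4.21% of intermediates in the CTX mice and 4.67%, 4.72%, 4.74%, 4.52% and 3.42% in the CTX_CD4 mice, against 2.29% to 3.37% of singletons. Its log2 fold change was 0.96 (SE 0.10, edgeR adjusted p = 5.28e-19). TRAV7N-5 had the largest rise of the named segments, 2.14-fold (edgeR adjusted p = 2.58e-16), and TRAV7-5 rose by 0.86 on the log2 scale. Of 13 TRAV7 segments tested, 6 were higher, 1 was lower and 6 did not pass, beside 18.9% higher and 26.3% lower of all 95 alpha V segments. All TRAV7 segments together made up 20.8% ± 1.91 (SD, n = 8) of intermediates and 15.9% ± 1.15 of singletons, with 20.6% in CTX and 21.0% in CTX_CD4.

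The TRAV7 result has to be read beside the transferred cells. The sort kept Thy1.1-negative cells, and Pmel-1 cells carry Thy1.1. Their beta V, TRBV14, was used by 4.51% ± 0.686 (SD, n = 8) of beta intermediates and 4.44% ± 0.381 of singletons (log2 fold change 0.09, edgeR adjusted p = 0.351). Whether carried-over cells took part in the TRAV7 result was not tested further.

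TRAV16N, TRAV14N-1, TRAV19 and TRAV12N-3 were the other named alpha V segments that were higher. TRAV16N was used by 6.82% to 9.85% of intermediates and 4.70% to 5.67% of singletons (log2 fold change 0.78, SE 0.08, edgeR adjusted p = 4.23e-18). The log2 fold changes of TRAV14N-1, TRAV19 and TRAV12N-3 were 0.88, 0.60 and 0.52. Of those that were lower, TRAV9D-2 fell by 2.02 and TRAV12D-2 by 1.63 on the log2 scale, both rare, at 0.404% and 0.899% of singletons, and TRAV6-6 fell by 0.87. For the segments as named, the direction of all 10 held under every alternative run, scaling by library totals included. The size of the log2 fold changes was less stable. It ranged from −2.70 to −0.76 for TRAV6-6, −3.42 to −1.48 for TRAV12D-2 and 0.32 to 0.64 for TRAV12N-3.

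With all segments of a family merged, near-identical copies and others alike, differences were seen in both directions. Of 21 alpha V families 13 passed (61.9%), 6 higher and 7 lower. TRAV7 (log2 fold change 0.52), TRAV16 (0.51), TRAV19 (0.54) and TRAV14 (0.29) were higher, and TRAV9 (−0.82), TRAV13 (−0.52) and TRAV2 (−1.49) were lower (edgeR, adjusted p from 2.27e-17 to 0.000196). TRAV12 (0.00, adjusted p = 0.984) and TRAV6 (−0.07, adjusted p = 0.399) did not pass. These families hold several segments beside the copies of TRAV12N-3, TRAV12D-2 and TRAV6-6, and TRAV12 holds segments called in both directions. Of 19 beta V families 10 passed (52.6%). These families were added after the data had been seen.

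Among beta V segments, TRBV13-1 was higher in 8 of 8 mice. It was used by 13.6%, 12.7% and 13.7% of intermediates in the CTX mice and 13.0%, 12.5%, 10.1%, 12.9% and 10.2% in the CTX_CD4 mice, against 8.68% to 10.6% of singletons (log2 fold change 0.43, SE 0.05, edgeR adjusted p = 3.65e-05). TRBV17 (0.42) and TRBV13-3 (0.31) were also higher, each in 7 of 8 mice, and TRBV31 (0.34) in 6 of 8. TRBV17 averaged 8.37% of intermediates in CTX and 6.06% in CTX_CD4, against 5.47% of singletons. For TRBV13-3 these means were 14.2%, 11.2% and 10.4%, so that both rises were larger in CTX. TRBV26 (−0.66), TRBV15 (−0.45), TRBV3 (−0.39), TRBV12-2 (−0.28) and TRBV13-2 (−0.18) were each lower in 8 of 8 mice, and TRBV2 (−0.35) in 7 of 8. The calls of TRBV13-2 and TRBV2 were the least stable and were lost in 6 of 15 and 9 of 16 alternatives, among them without CTX mouse 1, CTX mouse 3 and, for TRBV13-2, CTX_CD4 mouse 4 or, for TRBV2, CTX_CD4 mouse 1, 2 or 3 (edgeR adjusted p up to 0.908 and 0.600 over all alternatives). Among clonotypes of 3 to 9 reads, TRBV26, TRBV3, TRBV31 and TRBV13-3 did not pass (edgeR adjusted p = 0.211, 0.267, 0.155 and 0.267), and TRBV12-2 did not pass with DESeq2 (0.0688) or without the mouse block (0.0561). Segments of the TRBV13 family thus lay on both sides.

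Few J segments passed. In the alpha chain 5 of 43 did (11.6%). TRAJ30 was used by 4.68% to 6.29% of intermediates and 3.91% to 4.79% of singletons (log2 fold change 0.43, SE 0.06, edgeR adjusted p = 1.85e-09). TRAJ22 (0.39), TRAJ12 (0.30) and TRAJ15 (0.29) were higher and TRAJ52 (−0.43) was lower. The mean TRAJ number, which runs down along the locus toward the constant region, was 30.1 ± 0.902 (SD, n = 8) in intermediates and 30.8 ± 0.771 in singletons, lower in 8 of 8 mice (exact sign-flip test, adjusted p = 0.0107). In the beta chain 2 of 12 J segments passed (16.7%), TRBJ2-4 (0.19) higher and TRBJ1-5 (−0.30) lower. The calls of TRAJ30, TRAJ22 and TRAJ12 held without any 1 mouse, but with DESeq2 those of TRAJ22 (adjusted p = 0.0583) and TRAJ12 (0.332) were lost. The call of TRAJ15 was lost without either of 2 mice, and those of TRAJ52, TRBJ2-4 and TRBJ1-5 without any 1 of 5. CTX_CD4 mouse 1 was among them for all of these, and the direction was kept. Without that mouse, TRAJ15 and TRAJ52 had an edgeR adjusted p of 0.0604 and 0.0994. Over all alternatives the adjusted p reached 0.483 and 0.332 for TRAJ15 and TRAJ52, with DESeq2. With edgeR it reached 0.415 for TRBJ2-4, at 3 to 9 reads, and 0.249 for TRBJ1-5.

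**Figure D5:**
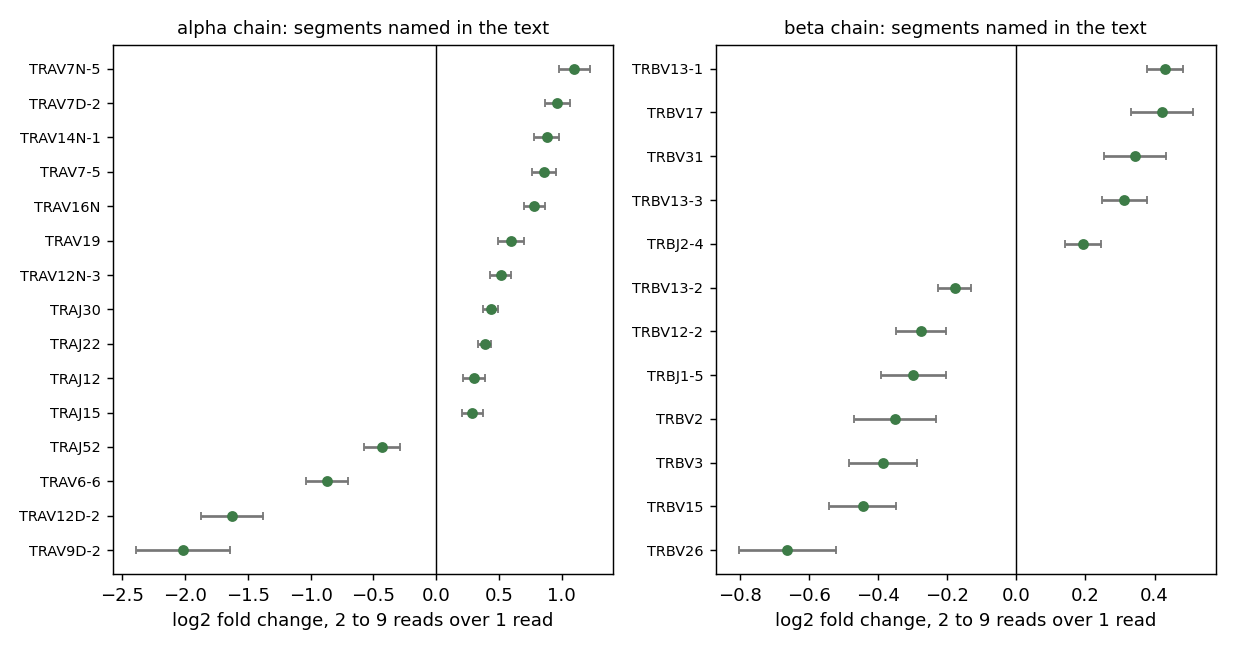
Log2 fold change (point) with its standard error (bar) for the V and J segments named, clonotypes of 2 to 9 reads over clonotypes of 1 read, from edgeR with TMM scaling. TRAV7N-5 lies farthest right, at 2.14-fold, and TRAV9D-2 farthest left, at −2.02.

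Single V-J pairs were rare in the alpha chain and more concentrated in the beta chain. The pairs below were the most frequent and were chosen for that. TRAV19 with TRAJ56 was used by 0.794%, 0.922% and 0.693% of alpha intermediates in CTX mice and 0.497% to 0.646% in CTX_CD4 mice, against 0.336% of singletons on average. TRBV13-3 with TRBJ2-7 was used by 3.09%, 2.89% and 3.88% of beta intermediates in CTX mice and 2.05% to 3.48% in CTX_CD4 mice, against 2.26% of singletons. Alpha intermediates used 751 to 1078 different V-J pairs per mouse, and beta intermediates used 197 to 223.

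Between the groups, beta intermediates differed in 3 segments and alpha intermediates in none. TRBV17 was used by 8.78%, 8.66% and 7.68% of beta intermediates in the CTX mice and 6.55%, 5.34%, 6.53%, 6.14% and 5.73% in the CTX_CD4 mice. It was lower in CTX_CD4 by 0.62 on the log2 scale (SE 0.17, edgeR adjusted p = 0.00565), and the groups did not overlap. TRBV13-3 was used by 14.2%, 13.8% and 14.7% in CTX and 9.08%, 10.7%, 13.0%, 11.6% and 11.6% in CTX_CD4 (log2 fold change −0.52, SE 0.15, edgeR adjusted p = 0.00565). These were 2 of 20 beta V segments tested (10%). The folds are scaled by TMM. With library totals in its place they were smaller, at −0.45 for TRBV17 and −0.35 for TRBV13-3 on the log2 scale (edgeR adjusted p = 0.0393 each). TRBV17 did not pass without CTX mouse 1, among clonotypes of 3 to 9 reads or with the mice of equal number as a replicate block (edgeR adjusted p up to 0.155). TRBV13-3 did not pass in these settings either, nor with DESeq2 or without CTX mouse 3 or CTX_CD4 mouse 2 (adjusted p up to 0.0971).

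TRBJ2-2 was the 1 of 12 beta J segments that passed (8.33%), lower by 0.38 in CTX_CD4 (SE 0.12, edgeR adjusted p = 0.0414). Its call was lost in 11 of 15 alternatives, with the direction kept (adjusted p up to 0.438). Of 65 alpha V segments 0 passed (0%) with edgeR and 0 with DESeq2, and 3 and 1 had an unadjusted p under 0.05. Of 43 alpha J segments 0 passed (0%) with either tool, and 2 had an unadjusted p under 0.05 with each.

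The V-J pairs of 2 invariant receptors were rare in both classes. TRAV11 with TRAJ18, the invariant alpha chain of natural killer T cells, was counted with the copies TRAV11D and TRAV11N and gave 14 alpha intermediates in all, with 0 to 5 in a mouse, and 16 singletons. The files name TRAV11D for all 14 of these intermediates and for 13 of the singletons. Its mean share was 0.114% ± 0.0979 (SD, n = 8) of intermediates and 0.0371% ± 0.0260 of singletons. TRAV1 with TRAJ33, the alpha chain of mucosal-associated invariant T cells, gave 4 intermediates, with 0 to 2 in a mouse, and 8 singletons, or 0.0290% ± 0.0424 and 0.0173% ± 0.0229. These shares rest on few clonotypes and were not tested.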

How the data were processed

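T-cell receptor libraries of sorted en-T cells were made from RNA by nested PCR and sequenced on a MiSeq. Per the study's methods, reads were trimmed and aligned with MiXCR, receptor sequences were extracted with VDJtools, and each library was reduced to 10000 reads. The submitters' processing notes name bcl2fastq and mm10. In the deposited files the authors give each clonotype a read count, its fraction of reads, the CDR3, segment names and segment positions. The fraction equals the count divided by 10000. Reads before this reduction were not used here.

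Intermediates were records of 2 to 9 reads. Inserted nucleotides are those between V end, D and J start. Classes were compared within mice by an exact sign-flip test, groups by an exact Mann-Whitney test, with Benjamini-Hochberg adjustment over the features of a chain (11 alpha, 12 beta). Beta class comparisons are printed over 11 features, without the near-neighbour share, which depends on the read counts that define the classes. Clonotypes per segment (mean of at least 5) were tested with edgeR 4.0.16 (TMM, quasi-likelihood). DESeq2 was an alternative. Named segments are at most 10 per comparison with the smallest adjusted p under 0.05, and TRBV14, the TRAV7 family and the invariant pairs. Members and lists were chosen with earlier results of these data known. Alternatives were run for inserted nucleotides, length and sharing, for other features with an unadjusted p under 0.05, and for all segment counts. Scripts were tested on simulated data.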

Additional observations from a re-analysis of the deposited data

Results flagged for a closer look

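CTX_CD4 mouse 2 lay far from the other CTX_CD4 mice in the share of alpha intermediates found in another mouse. Its share was 44.9% and the next highest was 37.1%. This gap took up 0.780 of the spread from lowest to highest mouse, where Dixon's test sets a limit of 0.71 with 5 samples. The share was 1 of 35 so checked, and chance alone passes the limit in about 1 in 20 groups. Without the sequences listed for both CTX_CD4 mice 1 and 2 its share was 30.8%, a filter that takes out shared sequences of these mice alone and can only lower it. The same mouse had the fewest intermediates in both chains.

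In the beta chain, the difference between intermediates and singletons itself differed between the groups for 5 of the 23 features tested in both chains. For each, the values of the CTX and CTX_CD4 mice did not overlap (exact Mann-Whitney test, two-sided, p = 0.0357), and none passed adjustment (p = 0.0857). The share of TRBJ2 segments was higher in intermediates than in singletons by 4.26 percentage points in CTX and by 0.400 in CTX_CD4, a difference of −3.86. For the share with a D segment the class difference was −0.586 points in CTX and −1.87 in CTX_CD4, a difference of −1.29. For the share whose amino acid sequence had another nucleotide form in the library it was 0.813 and −0.139 points, a difference of −0.952. The mean hydropathy of the middle residues was lower in intermediates by 0.0424 in CTX and differed by −0.00247 in CTX_CD4, a difference of 0.0399. The percent of clonotype pairs with V and J in common was higher by 0.229 in CTX and by 0.0920 in CTX_CD4, a difference of −0.137. What lay behind these values was not tested.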

How the results depend on the processing

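The class differences in alpha inserted nucleotides, CDR3 length and sharing kept their direction and their side of the unadjusted threshold in every alternative run. Over all class differences in CDR3 features, 228 of 259 values did so, 24 lost the threshold and 4 reversed. Of 412 values for the segments named between classes, 364 kept their call and 0 reversed, and of 46 for those named between groups 26 kept it and 0 reversed. Leaving out the sequences listed for both CTX_CD4 mice 1 and 2 takes shared sequences from these mice alone, so that by construction it can only lower sharing in CTX_CD4. Where a result changed, the cause was not tested, apart from the smaller number of mice or clonotypes that an alternative leaves by its construction. Clonotypes of 5 to 9 reads, germline matching, the stretch from V end to J start, V families, features without the near-neighbour share and sharing without CTX_CD4 mice 1 and 2 were chosen after seeing the data.

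The group difference in alpha inserted nucleotides (−0.0055) was near 0 and was 0.174 among clonotypes of 3 to 9 reads, 0.00564 by amino acid sequence, 0.000134 without near neighbours, 0.0227 weighted by reads, 0.0859 without sequences listed for both CTX_CD4 mice 1 and 2, 0.667 at 5 to 9 reads (exact Mann-Whitney p = 0.0357) and −0.0234 to 0.0289 with 1 mouse left out. For alpha CDR3 length (−0.106) it was 0.153 at 3 to 9 reads and 0.638 at 5 to 9 reads. For alpha sharing (0.550 points) it was −4.56 at 3 to 9 reads, −0.444 weighted by reads, −4.62 without the sequences of that pair, −22.5 at 5 to 9 reads, and −1.15 to 1.34 with 1 mouse left out, the lowest being without CTX_CD4 mouse 2. The beta group difference in inserted nucleotides (0.0477) was −0.00648 with the replicate block. In the beta stretch from V end to J start, which holds the D segment, the group difference was −0.0524. For beta length (0.0864) it was 0.915 at 5 to 9 reads (exact Mann-Whitney p = 0.0357) and −0.0209 to 0.171 with 1 mouse left out. For beta sharing it was −0.134 without the sequences of that pair, and for beta V and J in common 0.232 at 5 to 9 reads. Because that filter can only lower sharing in CTX_CD4, no change of direction is read from −4.62 or −0.134.

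Between classes, 4 beta CDR3 features were past the adjusted threshold over 12 features, 1 of them the near-neighbour share that follows in part from the read counts, against 9 for amino acid clonotypes, 0 without near neighbours, 0 with the near-neighbour share left out of the features, 0 at 5 to 9 reads and 0 to 0 with 1 mouse left out, where the smallest exact p of 0.0156 leaves little room for adjustment. The beta difference in inserted nucleotides (−0.0481) passed at −0.110 by amino acid sequence (exact sign-flip p = 0.0078). The beta counts by germline match and from V end to J start also hold the D segment, with means of 9.90 and 8.79 nucleotides in intermediates. They are thus not counts of inserted nucleotides, and differed by −0.308 and −0.225 (exact sign-flip p = 0.0078 each). Beta length (−0.246) ranged from −0.285 to −0.199 with 1 mouse left out and lost the threshold in 6 of 8 cases (exact sign-flip p = 0.0625). Beta sharing (1.90 points) was 1.02 without CTX_CD4 mice 1 and 2. The beta share with a near neighbour was higher by 0.196 at 5 to 9 reads, and beta ends other than C and F or W were more frequent by 0.211 at 3 to 9 reads, 0.0514 weighted by reads and 1.40 at 5 to 9 reads.

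The number of alpha V segments called between classes was 43, and 13 as families. It was 44 with library totals, 36 without the mouse block, 34 at 3 to 9 reads, 32 with DESeq2 and 31 to 38 with 1 mouse left out. For alpha J it was 5, with DESeq2 1, at 3 to 9 reads 9 and with 1 mouse left out 3 to 6. For beta V it was 11, and 12 with library totals, 9 without the mouse block, 8 with DESeq2, 4 at 3 to 9 reads and 8 to 12 with 1 mouse left out. For beta J it was 2, and 1 without the mouse block, with DESeq2 or without near neighbours, and 0 to 2 with 1 mouse left out. Between groups, 0 alpha V segments were called, and 1 from reads in place of clonotypes. For beta V it was 2, both lower in CTX_CD4, with DESeq2 1, at 3 to 9 reads 1, which was TRBV3, higher in CTX_CD4 (log2 fold change 1.53), with the replicate block 0 and with 1 mouse left out 0 to 4, 0 being without CTX mouse 1. For beta J it was 1, and 0 with library totals, DESeq2, reads, 3 to 9 reads or the replicate block, and 0 to 2 with 1 mouse left out. Library totals moved the median beta V fold between groups by 0.17 on the log2 scale.

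The mice 1 to 3 of the groups share only a number. Deviations of same-numbered mice correlated at −0.0551 to 0.0191 for alpha and −0.328 to 0.262 for beta, and 3 pairs cannot give an exact p under 0.25. With 7 mice the smallest p between groups is 0.0571 or 0.0952. The depth of 10000 reads leaves 64 to 65 alpha intermediates of 5 to 9 reads in a CTX library.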

Other observations

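Some values were not printed above. An internal cysteine was present in the CDR3 of 0.255% ± 0.122 (SD, n = 8) of alpha and 4.87% ± 1.06 of beta intermediates. Of beta intermediates it was 3.93% ± 0.295 (SD, n = 3) in CTX and 5.44% ± 0.931 (SD, n = 5) in CTX_CD4 (exact Mann-Whitney test, two-sided, p = 0.0714, adjusted p = 0.171). Ends other than the usual cysteine and phenylalanine or tryptophan were found in 3.50% ± 0.418 of alpha and 0.153% ± 0.0959 of beta intermediates.

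Merged into families, beta V use of intermediates differed between the groups in 3 of 17 families (17.6%), all lower in CTX_CD4. These were TRBV13 (log2 fold change −0.28, SE 0.05, edgeR adjusted p = 4.52e-06), TRBV17 (−0.54, SE 0.16) and TRBV16 (−0.32, SE 0.11). Within the TRBV13 family, TRBV13-1 and TRBV13-3 had lower mean shares in CTX_CD4. TRBV13-2 had a higher one, at 4.76% of intermediates in CTX and 5.48% in CTX_CD4. TRBV17 and TRBV16 are families of 1 segment here. As a segment TRBV16 did not pass (edgeR adjusted p = 0.0620), and TRBV17 lost its call with the replicate block or without CTX mouse 1 (edgeR adjusted p = 0.0777 and 0.0734). The families were formed after seeing the data.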
